A study of Mus musculus with 4 samples.

Results

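The 32 genes described here are mouse glycolysis and hypoxia-responsive genes, taken as a list of symbols and matched by NCBI gene ID, out of 15935 genes listed in any of 4 RNA-seq libraries. All 32 members were listed in all 4 libraries. By role they comprise 3 transporters of glucose and lactate, 16 core enzymes of glycolysis with lactate dehydrogenase, 6 regulators and 6 HIF-1 targets. The remaining member, Tpp2, encodes a tripeptidyl peptidase with no known place in glycolysis or the hypoxia response. The cells were bone marrow-derived macrophages of C57BL/6 adult mice, grown for 5 days in medium conditioned with the macrophage growth factor M-CSF. KO LPS cells came from ezh2f/f lysmcre mice (genotype EZH2-/- in the labels) and received lipopolysaccharide (LPS), a bacterial outer membrane component, for 2 h. KO NT cells had the same genotype without treatment, WT LPS cells were wild type with 2 h of LPS, and WT NT cells were wild type and untreated. LysM Cre acts in myeloid cells, so the deletion in these cultures is limited to cells that express LysM. The labels do not give the floxed exons, the LPS dose, the number of mice, or whether WT mice carried Cre or floxed alleles.

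Glycolysis splits glucose into pyruvate, which lactate dehydrogenase can turn into lactate for export. Macrophages that sense LPS are known to take up more glucose and to rely more on glycolysis for their early inflammatory output. HIF-1 is a transcription factor whose alpha subunit is marked for destruction by oxygen-dependent prolyl hydroxylases and which binds hypoxia response elements in glycolytic and other genes. Ezh2 is the catalytic subunit of Polycomb repressive complex 2, which methylates lysine 27 of histone H3.

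Hypoxia response elements share a short core, so the 250 bases before the start site were read for all members and are shown for 6 of the 9 members at least 2-fold apart with LPS in either genotype. Sequences are from RefSeq, build GRCm38.p6, 5′ to 3′ on the gene's strand, with matches to ACGTG or GCGTG on either strand in capitals.
Slc2a1 (chr4:119108495-119108744, + strand): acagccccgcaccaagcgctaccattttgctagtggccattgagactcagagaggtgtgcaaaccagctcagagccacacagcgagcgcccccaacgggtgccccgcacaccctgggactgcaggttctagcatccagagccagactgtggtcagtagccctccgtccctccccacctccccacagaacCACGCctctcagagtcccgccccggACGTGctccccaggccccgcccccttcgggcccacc
Hk2 (chr6:82774455-82774704, - strand): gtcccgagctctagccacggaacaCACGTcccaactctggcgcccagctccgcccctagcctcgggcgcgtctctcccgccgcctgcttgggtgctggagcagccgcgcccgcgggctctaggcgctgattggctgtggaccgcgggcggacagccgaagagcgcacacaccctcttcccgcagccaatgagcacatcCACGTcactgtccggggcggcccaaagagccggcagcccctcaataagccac
Pfkfb3 upstream start (chr2:11553930-11554179, - strand): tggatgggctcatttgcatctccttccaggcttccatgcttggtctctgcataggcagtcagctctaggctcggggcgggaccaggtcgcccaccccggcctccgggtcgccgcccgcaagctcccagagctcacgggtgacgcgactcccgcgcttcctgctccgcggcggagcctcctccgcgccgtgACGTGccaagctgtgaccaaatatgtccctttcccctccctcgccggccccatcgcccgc
Pfkfb3 downstream start (chr2:11502091-11502340, - strand): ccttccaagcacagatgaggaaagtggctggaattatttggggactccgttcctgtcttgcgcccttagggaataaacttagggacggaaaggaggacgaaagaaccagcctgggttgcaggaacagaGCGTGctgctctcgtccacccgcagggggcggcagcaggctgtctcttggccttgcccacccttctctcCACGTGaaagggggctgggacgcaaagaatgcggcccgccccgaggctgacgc
Hilpda (chr6:29272238-29272487, + strand): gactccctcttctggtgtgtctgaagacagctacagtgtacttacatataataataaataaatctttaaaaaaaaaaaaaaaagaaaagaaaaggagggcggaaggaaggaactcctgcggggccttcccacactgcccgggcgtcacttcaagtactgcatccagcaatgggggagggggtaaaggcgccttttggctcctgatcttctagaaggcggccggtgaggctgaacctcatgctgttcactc
Adm (chr7:110627407-110627656, + strand): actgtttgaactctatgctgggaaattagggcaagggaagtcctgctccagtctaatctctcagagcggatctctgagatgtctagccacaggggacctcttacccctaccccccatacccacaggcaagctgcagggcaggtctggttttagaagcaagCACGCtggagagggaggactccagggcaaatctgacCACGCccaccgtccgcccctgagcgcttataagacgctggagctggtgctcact
Pfkfb4 (chr9:108991652-108991901, + strand): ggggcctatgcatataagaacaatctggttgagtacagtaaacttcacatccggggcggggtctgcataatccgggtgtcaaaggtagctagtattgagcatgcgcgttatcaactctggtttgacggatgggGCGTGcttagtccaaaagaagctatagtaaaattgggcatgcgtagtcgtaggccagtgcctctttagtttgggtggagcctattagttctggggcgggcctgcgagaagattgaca

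Slc2a1, Hk2 and Adm each held 2 matches, the 2 Pfkfb3 windows held 1 and 3, and Pfkfb4 held 1. CACGTG in the second Pfkfb3 window reads the same on both strands and counted on each. The Hilpda window shown held none, while a second, overlapping Hilpda window held 3. Over all members, 30 of 32 had a match in at least 1 window, and 38 of 47 member windows did (80.85%), against 12679 of 32851 windows of the same length in the RefSeq table (38.6%). The motif contains CG, and base composition was not matched in this count. An NF-kB motif (GGG, any 2 bases, then TTTCC, on either strand) was in 0 of the 47 member windows and in 464 of all windows (1.412%). Pfkfb4, lower with LPS, carried the core as did Slc2a1 and Hk2, which were higher.

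Each group had 1 library, so differences could not be checked against replicates and no p-values were computed. Libraries held between 5237782 and 5678451 expected counts on genes, and levels are FPKM, read fragments scaled for transcript length and library size. A fold is log2 of (FPKM + 1) in one library over the other, and a gene counts as higher or lower past 2-fold if at least 1 of its libraries reached 1 FPKM. Intervals on FPKM ratios are exact 95% intervals from the counts and cover counting error only, which understates the error because amplified reads are not independent molecules. FPKM is a share of a library: the median of all genes tested was -0.42 with LPS in KO and -0.46 in WT. Member counts, core medians and some single genes with LPS are therefore also given after median-ratio scaling, which puts both all-gene medians at -0.03. Ezh2 stood at 1.29 FPKM in KO LPS and 2.06 in KO NT, against 2.52 in WT LPS and 2.84 in WT NT. The KO to WT ratio for Ezh2 was 0.512 with LPS (0.275 to 0.919) and 0.725 without (0.442 to 1.18), on 18 to 43 counts, so the KO libraries still held Ezh2 reads. The 12 macrophage markers summed to 3854 and 3627 FPKM in the KO LPS and NT libraries, against 3815 and 3431 in the WT LPS and NT libraries. The 15 neutrophil and precursor markers summed to 572.2 and 658.4 FPKM in the KO LPS and NT libraries, against 420.1 and 388.4 in the WT LPS and NT libraries. Fibroblast markers summed to 3.71 and 4.33 FPKM in the KO LPS and NT libraries, against 8.15 and 7.15 in the WT LPS and NT libraries. Lymphocyte and erythroid markers summed to at most 4.10 FPKM in any library, and the lymphocyte genes Cd3e, Cd3g and Ncr1 were at 0.

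**Figure D1:**
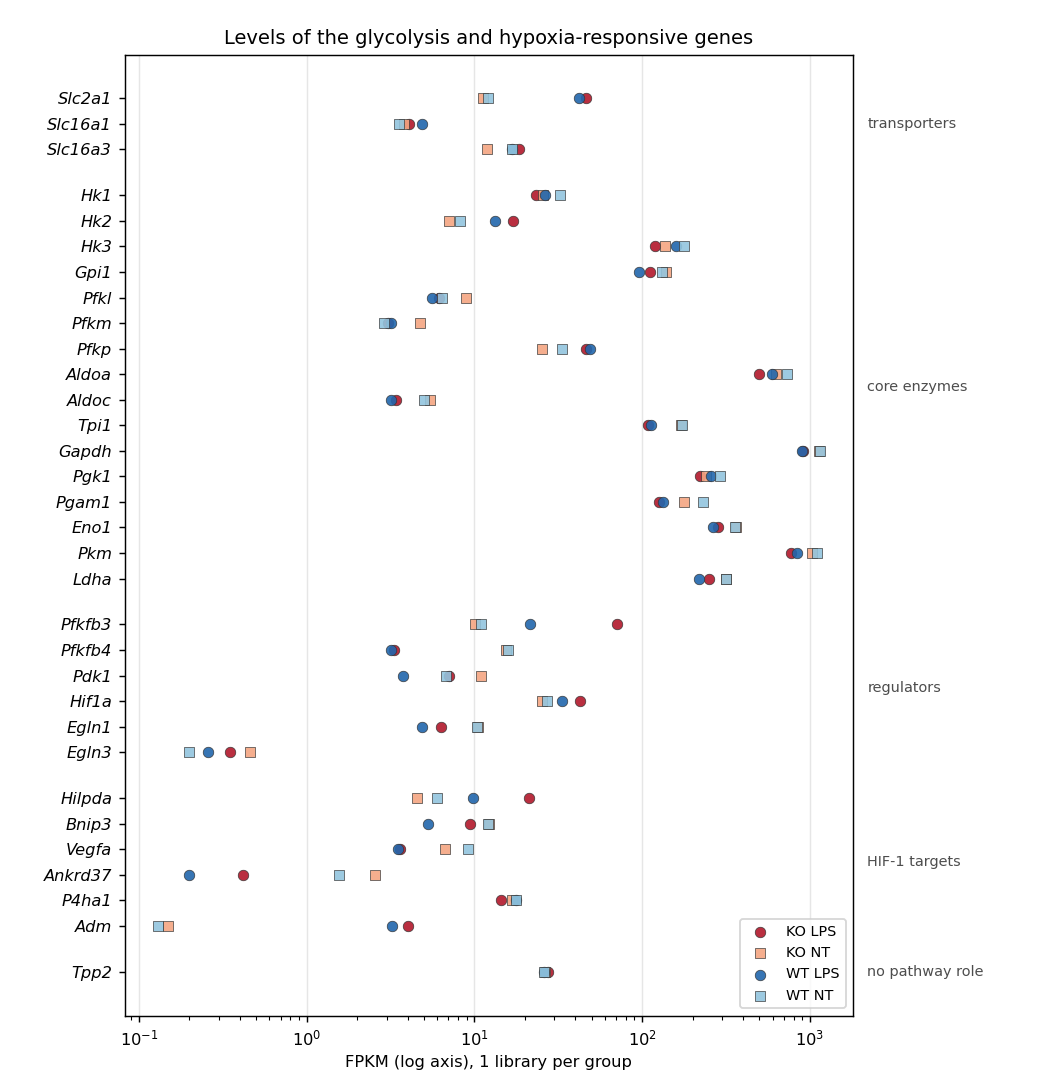
FPKM of the 32 members on a log axis in each of the 4 libraries, grouped by role, each point 1 library. Core enzymes span 2.91 FPKM for Pfkm to 1144 for Gapdh, and Pfkfb3 in KO LPS, at 71.1 FPKM, stands apart from its other 3 libraries.

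With LPS, Slc2a1 and Adm were past 2-fold higher and Pfkfb4 and Ankrd37 past 2-fold lower in both genotypes, and Pfkfb3, Hk2 and Hilpda were past 2-fold higher in KO. In KO, 5 of the 31 measured members were at least 2-fold higher with LPS (6.61% of 11069 genes tested were): Slc2a1, Hk2, Pfkfb3, Hilpda and Adm. In KO, 2 were at least 2-fold lower, Pfkfb4 and Ankrd37, against 15.1% of genes tested. In WT, 2 of 31 were higher, Slc2a1 and Adm, against 6.41% of 10972 genes tested, and 4 were lower, Pfkfb4, Bnip3, Vegfa and Ankrd37, against 17.2%. The member median was -0.32 in KO and -0.29 in WT, each a little above that of all genes. After median-ratio scaling 7 members were higher in KO, with Pfkp and Hif1a added, and 6 in WT, with Hk2, Pfkp, Pfkfb3 and Hilpda added; 2 stayed lower in KO and only Pfkfb4 in WT.

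Among the transporters, Slc2a1 encodes GLUT1, a high-affinity glucose carrier. It stood at 46.05 FPKM in KO LPS and 11.3 in KO NT, and at 42.1 in WT LPS and 12.1 in WT NT. Both LPS libraries lay above both untreated ones, with ratios of 4.08 in KO (3.43 to 4.87) and 3.48 in WT (2.94 to 4.14). Slc16a3, the lactate exporter MCT4, was at 18.6 FPKM in KO LPS and 11.9 in KO NT, against 16.8 in both WT LPS and WT NT. Its untreated KO library was the low one, at 0.710 of WT NT (0.579 to 0.869). LPS and NT differed in KO, with a ratio of 1.56 (1.27 to 1.91), while the WT values were equal. After median-ratio scaling the log2 fold of Slc16a3 with LPS was 0.996 in KO and 0.452 in WT. Slc16a1, the lactate carrier MCT1, lay between 3.55 and 4.85 FPKM in all 4 libraries.

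The 16 core enzymes ranged from 2.91 FPKM for Pfkm to 1144 for Gapdh, and 1 of them, Hk2 in KO, was past 2-fold with LPS. Together they held 0.675% of counts in KO LPS and 0.841% in KO NT, against 0.715% in WT LPS and 0.910% in WT NT. With LPS, 13 of 16 in KO and 12 of 16 in WT had an interval below 1, where 57.1% and 60.4% of genes tested did. Intervals above 1 were found for 2 of 16 in each genotype, Hk2 and Pfkp, against 14.5% and 13.3% of genes. The core median was -0.34 in KO and -0.33 in WT, which turned to 0.09 and 0.15 after median-ratio scaling. After it, 11 of 16 in KO and 12 of 16 in WT were above 0. Of all genes after scaling, 5239 were above 0 and 5753 below in KO, and 5217 and 5696 in WT. The direction of the core enzymes with LPS therefore flips with the scaling, and it is known only relative to the other genes.

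Hexokinases trap glucose as its phosphate in the first step. Hk2, the inducible isoenzyme, was at 17.0 FPKM in KO LPS and 7.11 in KO NT, and at 13.2 in WT LPS and 8.24 in WT NT. The LPS ratio of Hk2 was 2.39 in KO (2.04 to 2.81) and 1.61 in WT (1.37 to 1.88). Hk3, a hexokinase typical of myeloid cells, was the main form, with 74.8% of hexokinase FPKM in KO LPS and 80.7% in KO NT, against 80.0% in WT LPS and 81.4% in WT NT. Both KO libraries were low for Hk3, at 119 and 136 FPKM with and without LPS, against 158 and 178 in WT, and the KO to WT ratio was 0.751 with LPS (0.709 to 0.796) and 0.766 without (0.727 to 0.808). Hk1, the housekeeping form, lay between 23.2 and 32.6 FPKM.

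Phosphofructokinase commits sugar to glycolysis, and Pfkp, its platelet-type subunit, was the main form in every library. Pfkp stood at 46.5 FPKM in KO LPS and 25.4 in KO NT, against 49.0 in WT LPS and 33.2 in WT NT. Its LPS ratio was 1.83 in KO (1.65 to 2.03) and 1.48 in WT (1.35 to 1.62), and it took 83.5% of phosphofructokinase FPKM in KO LPS and 65.0% in KO NT, against 84.8% in WT LPS and 78.0% in WT NT. The liver and muscle subunits, Pfkl and Pfkm, lay between 2.91 and 8.95 FPKM and were higher in KO NT than in WT NT, with ratios of 1.39 (1.11 to 1.75) and 1.62 (1.12 to 2.38).

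The core enzymes other than hexokinases and phosphofructokinases gave the bulk of the core counts. Gapdh was at 907 FPKM in KO LPS and 1132 in KO NT, and at 896 in WT LPS and 1144 in WT NT. Pkm, pyruvate kinase, was at 770 and 1031 FPKM in KO LPS and KO NT, against 836 and 1101 in WT LPS and WT NT. For both, the untreated libraries were the high ones and KO and WT lay close together. Pgam1, phosphoglycerate mutase, was at 125 FPKM in KO LPS and 178 in KO NT, and at 133 in WT LPS and 230 in WT NT. Its WT LPS ratio of 0.579 (0.542 to 0.619) was the lowest of the core enzymes in WT, and its KO ratio was 0.705 (0.655 to 0.758). Tpi1, triosephosphate isomerase, had ratios of 0.633 in KO (0.582 to 0.687) and 0.651 in WT (0.601 to 0.705). Gpi1, Aldoa, Pgk1, Eno1 and Ldha had LPS ratios between 0.782 for Eno1 and 0.914 for Pgk1 in KO, and between 0.697 for Ldha and 0.895 for Pgk1 in WT. Aldoc, the brain-type aldolase, held 0.531 to 0.856% of aldolase FPKM.

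**Figure D2:**
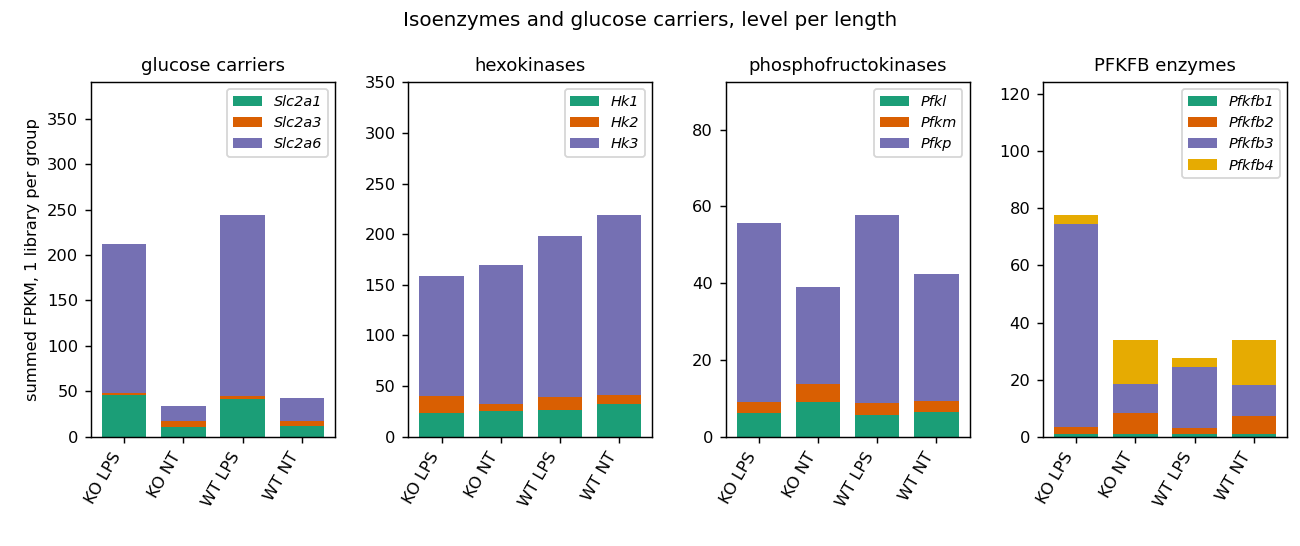
Stacked FPKM of the isoenzymes of 4 families (glucose carriers, hexokinases, phosphofructokinases and PFKFB enzymes), 1 bar for each of the 4 libraries. Pfkfb3 holds 91.5% of the PFKFB sum in KO LPS and 77.9% in WT LPS, while Pfkfb4 is the largest form in both untreated libraries.

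Among the regulators, 2 enzymes of 1 family moved in opposite directions with LPS. Pfkfb3 and Pfkfb4 encode bifunctional enzymes that make and remove fructose 2,6-bisphosphate, an activator of phosphofructokinase, with the Pfkfb3 form strongly favouring synthesis. Pfkfb3 (gene at chr2:11471430-11554071) stood at 71.1 FPKM in KO LPS and 10.1 in KO NT, against 21.5 in WT LPS and 10.9 in WT NT. The untreated libraries lay close together and the KO LPS library was far above the WT LPS one. LPS over NT was 7.06 in KO (6.22 to 8.04) and 1.97 in WT (1.71 to 2.27). Pfkfb3 counts were partly fractional, as where reads are shared with other genes, and its reported transcript length lay between 4794 and 5025 bases. Pfkfb4 (gene at chr9:108988272-109032236) went the other way, with 3.32 FPKM in KO LPS and 15.5 in KO NT, and 3.19 in WT LPS and 15.9 in WT NT. Its LPS ratio was 0.214 in KO (0.159 to 0.284) and 0.201 in WT (0.150 to 0.265), and KO and WT lay close together in both conditions. Pfkfb4 thus held 4.27% of PFKFB FPKM in KO LPS and 45.6% in KO NT, against 11.6% in WT LPS and 46.6% in WT NT.

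Hif1a encodes the oxygen-regulated subunit of HIF-1. It was at 42.5 FPKM in KO LPS and 25.3 in KO NT, against 33.2 in WT LPS and 27.1 in WT NT, with LPS ratios of 1.68 in KO (1.52 to 1.85) and 1.23 in WT (1.11 to 1.36). Egln1, a prolyl hydroxylase that marks HIF-1 alpha for destruction, was at 6.30 FPKM in KO LPS and 10.6 in KO NT, and at 4.85 in WT LPS and 10.4 in WT NT. Both LPS libraries were the low ones for Egln1, the reverse of Hif1a. Egln2, a family gene outside the 32 named for its share, held most prolyl hydroxylase FPKM. That share was 84.1% in KO LPS and 77.6% in KO NT, against 83.7% in WT LPS and 74.8% in WT NT. The LPS ratio of Egln2 was 0.922 in KO (0.804 to 1.06) and 0.830 in WT (0.712 to 0.966), and 1.24 and 1.16 after median-ratio scaling. Pdk1, a kinase that holds pyruvate dehydrogenase inactive, was at 7.06 FPKM in KO LPS and 10.9 in KO NT, against 3.78 in WT LPS and 6.74 in WT NT. Its KO to WT ratio was 1.87 with LPS (1.47 to 2.38) and 1.62 without (1.36 to 1.95), so the KO library was the higher one in both conditions. Egln3, an inducible prolyl hydroxylase, had 3 to 7 counts in each library and never reached 1 FPKM.

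The 6 HIF-1 targets did not move as a block with LPS. Hilpda, a lipid droplet protein induced by hypoxia that inhibits lipolysis, was at 21.1 FPKM in KO LPS and 4.57 in KO NT, against 9.75 in WT LPS and 6.02 in WT NT. The KO LPS library was the high one, on 106 counts against 25 in KO NT, 53 in WT LPS and 33 in WT NT. For Hilpda the LPS ratio was 4.62 in KO (2.96 to 7.45) and 1.62 in WT (1.03 to 2.58). Adm, which encodes the vasodilator peptide adrenomedullin, had 29 and 25 counts in KO LPS and WT LPS, against about 1 count in each untreated library. Its LPS ratio was 27.0 in KO (5.33 to 1312) and 24.9 in WT (4.08 to 1023), so the size of the change is poorly fixed.

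Bnip3, a mitophagy receptor, was at 9.39 FPKM in KO LPS and 12.3 in KO NT, against 5.28 in WT LPS and 12.1 in WT NT. The WT LPS library was the low one, with an LPS ratio of 0.437 in WT (0.309 to 0.610) and 0.763 in KO, where the interval spanned 1. Vegfa, the angiogenic growth factor, was lower with LPS in both genotypes, at 3.59 FPKM in KO LPS and 6.70 in KO NT, against 3.52 in WT LPS and 9.19 in WT NT. Its LPS ratio was 0.536 in KO (0.389 to 0.731) and 0.383 in WT (0.285 to 0.508). After median-ratio scaling the log2 folds of Bnip3 and Vegfa in WT were -0.64 and -0.77, short of 2-fold. Ankrd37, an ankyrin repeat protein, had 2 counts in KO LPS and 13 in KO NT, against 1 in WT LPS and 8 in WT NT, too few to size the change. P4ha1, a collagen prolyl hydroxylase subunit, lay between 14.3 and 17.7 FPKM in every library. Tpp2 lay between 25.9 and 27.6 FPKM, with all 4 of its intervals spanning 1.

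**Figure D3:**
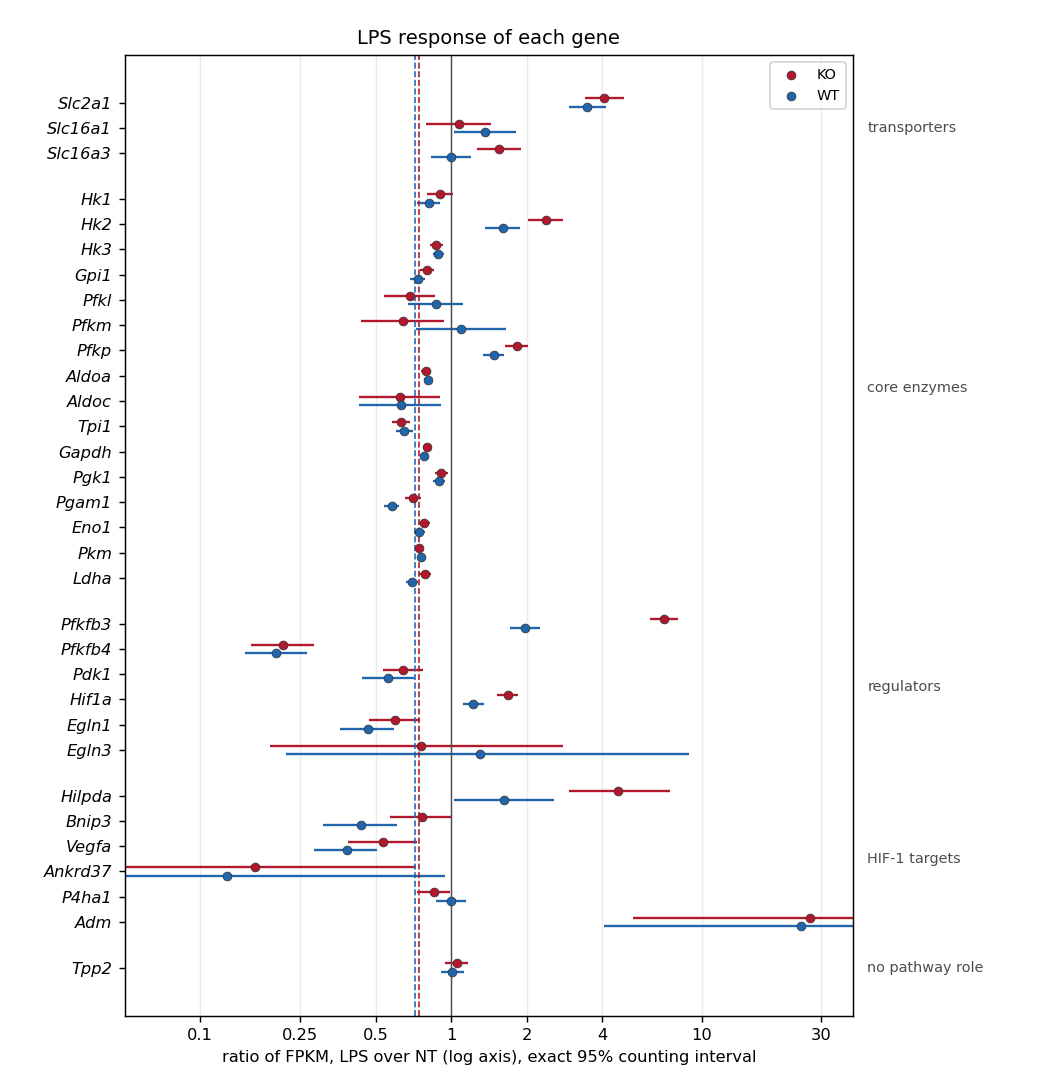
FPKM ratio of LPS to NT for each member on a log axis, KO above WT, with exact 95% counting intervals and dashed lines at the ratio of median-ratio factors (0.744 in KO, 0.718 in WT). The axis runs to limits that the intervals of Ankrd37 and Adm pass, and the core enzymes other than Hk2 and Pfkp lie between 0.579 (Pgam1 in WT) and 1.10 (Pfkm in WT).

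The KO and WT comparison without LPS showed small differences. Of the 30 measured members, 0 were past 2-fold in either direction, against 0.928% of 10990 genes past it with KO NT above WT NT and 0.883% with KO NT below. The member median was -0.05, beside 0.02 for all genes. Intervals lay above 1 for 3 members, Pfkl, Pfkm and Pdk1, and below 1 for 9, where 14.1% and 11.6% of genes did. The 9 were Slc16a3, Hk1, Hk3, Pfkp, Aldoa, Pgk1, Pgam1, Pkm and Vegfa, with ratios between 0.710 and 0.937.

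With LPS, 2 of 30 measured members were at least 2-fold higher in KO than in WT, Pfkfb3 and Hilpda, against 1.45% of 10375 genes, and 0 were lower, against 1.12%. The KO to WT ratio with LPS was 3.31 for Pfkfb3 (3.02 to 3.63) and 2.16 for Hilpda (1.54 to 3.07). Without LPS the same ratios were 0.922 (0.782 to 1.09) and 0.759 (0.433 to 1.32). After median-ratio scaling the log2 fold of Hilpda was 0.98, just short of 2-fold. Intervals lay above 1 for 9 members and below 1 for 6, against 21.2% and 9.5% of genes. Bnip3, at 1.78 (1.25 to 2.56), and Hif1a, at 1.28 (1.17 to 1.40), were among those above 1. The 10 measured regulators and HIF-1 targets had a median of 0.33, with 9 of 10 above 0, while the 16 core enzymes had a median of -0.06, with 7 of 16 above 0. Over all genes the median was 0.08, with 6439 of 10375 above 0. After median-ratio scaling the regulators and targets had a median of 0.27, with 7 of 10 above 0, and the core enzymes -0.12. Of all genes, 5575 were then above 0 and 5007 below. The neutrophil markers were higher in KO in both conditions. Their median was 0.23 with LPS (13 of 15 above 0) and 0.58 without (11 of 14 above 0). Of all genes without LPS, 5856 of 10990 were above 0. The part of other cell types in the differences between KO and WT was not tested. In bulk RNA, fewer cells of a type and less RNA per cell cannot be told apart.

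**Figure D4:**
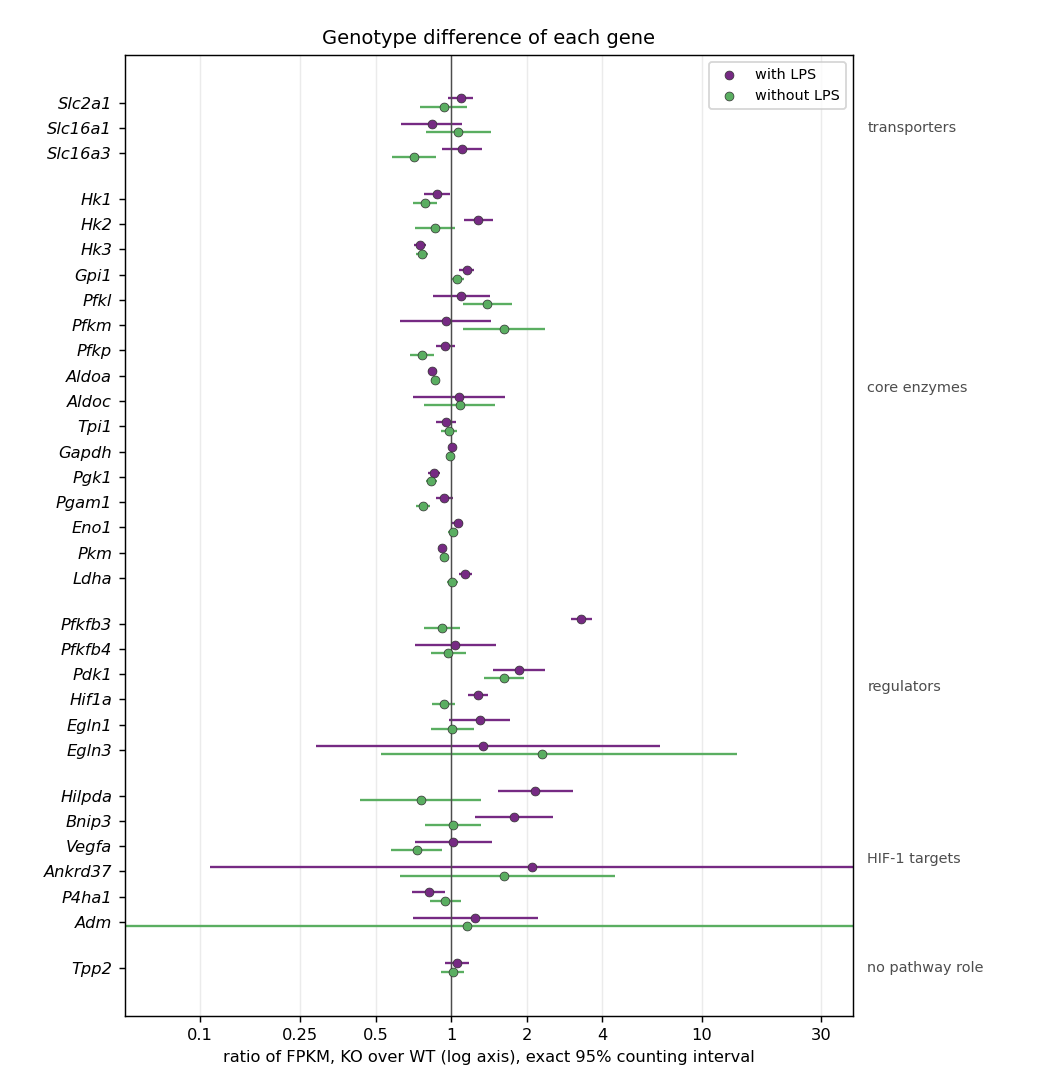
FPKM ratio of KO to WT for each member on a log axis, with LPS above without LPS, and exact 95% counting intervals, those of Ankrd37 and Adm running past the axis. Pfkfb3 and Hilpda lie past 2-fold with LPS, at 3.31 and 2.16, and span 1 without it.

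Setting the LPS ratio in KO over that in WT asks whether the genotypes responded differently. Of 31 members, 9 had an interval above 1 and 0 below, against 11.3% above and 4.76% below of the 10964 genes with counts in every library, whose intervals also lay more often above than below. On the fold scale, 2 members were at least 2-fold higher, Pfkfb3 and Hilpda, against 1.9% of 11320 genes, and 0 lower, against 1.42%. The ratio of ratios was 3.59 for Pfkfb3 (2.96 to 4.34) and 2.85 for Hilpda (1.47 to 5.53). For the other 7 it was 1.75 for Bnip3, 1.56 for Slc16a3, 1.49 for Hk2, 1.37 for Hif1a, 1.24 for Pfkp, 1.22 for Pgam1 and 1.13 for Ldha. Slc2a1, Pfkfb4 and Adm, the other members with large LPS changes, had ratios of 1.17, 1.07 and 1.08, with intervals that all spanned 1. The median difference of log2 folds was 0.30 for the 11 measured regulators and HIF-1 targets and 0.03 for the core enzymes, beside 0.05 for all genes. The 4 comparisons share libraries, so these values restate the levels given above and are not separate observations.

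Among listed genes outside the 32, the carrier gene Slc2a6 was the furthest above its untreated level in its list. Slc2a6, which encodes the lysosomal carrier GLUT6, was at 163 FPKM in KO LPS and 16.7 in KO NT, against 199 in WT LPS and 25.6 in WT NT. It was the largest of 3 glucose carriers, with 77.1% of their FPKM in KO LPS and 49.6% in KO NT, against 81.7% in WT LPS and 59.8% in WT NT, ahead of Slc2a1. Of 19 other glycolytic isoenzymes and glucose carriers, 1 of 12 measured in KO was 2-fold higher with LPS and 2 lower, and 1 of 11 measured in WT was higher and 3 lower, counts too small to set apart from the shares of all genes (6.61% higher and 15.1% lower in KO, 6.41% and 17.2% in WT). Pfkfb2, the heart-type PFKFB enzyme, was among those lower, at 0.328 of its untreated level in KO and 0.310 in WT. Bpgm, which makes 2,3-bisphosphoglycerate, was lower at 0.327 in KO and 0.350 in WT. After median-ratio scaling both fell short of 2-fold. The scaled log2 folds were -0.945 in KO and -0.948 in WT for Pfkfb2, and -0.849 and -0.726 for Bpgm.

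Pyruvate entry into mitochondria gave 0 genes 2-fold higher among 11 measured in either genotype and 2 lower in each, near the 15.1% of all genes lower in KO and 17.2% in WT. Pdp1, the phosphatase that reactivates pyruvate dehydrogenase, was at 0.294 of its untreated level with LPS in KO and 0.347 in WT. Its log2 fold after median-ratio scaling was -1.13 in KO and -0.89 in WT, where it fell short of 2-fold. The oxygen-sensing list (13 genes) had Cited2 and Siah2 higher and Vhl lower among 10 measured in KO. In WT, Cited2 was higher and Hif1an lower among 11 measured. Of all genes, 6.61% were higher and 15.1% lower in KO, and 6.41% and 17.2% in WT. Vhl was at 0.332 of its untreated level in KO and 0.585 in WT, and Hif1an at 0.653 and 0.410. After median-ratio scaling, Vhl in KO and Hif1an in WT were short of 2-fold, at log2 folds of -0.99 and -0.68. Cited2, which competes with HIF-1 alpha for the coactivators CBP and p300, was at 255 FPKM in KO LPS and 57.3 in KO NT, against 416 in WT LPS and 45.3 in WT NT. Here the WT LPS library was the highest, with LPS ratios of 4.46 in KO (4.09 to 4.87) and 9.20 in WT (8.39 to 10.1). Siah2, a ubiquitin ligase that targets prolyl hydroxylases, had an LPS ratio of 2.64 in KO (2.05 to 3.44) and 1.45 in WT (1.09 to 1.93).

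The 24 other HIF-1 targets had 4 higher and 2 lower of 20 measured in each genotype, against 6.61% higher and 15.1% lower of all genes in KO and 6.41% and 17.2% in WT, with medians of -0.49 in KO and -0.50 in WT. Edn1, the precursor of endothelin, had no counts in KO NT and 792 in KO LPS. The lower end of the exact 95% interval of its ratio in KO was 231.8. Taking 3 counts for the empty library gave 285.7, which leaves out the error of the KO LPS count. In WT its ratio was 128. Zfp395 was lower, at 0.0546 of its untreated level in KO and 0.0617 in WT. Ndrg1 had a ratio of 3.45 in KO and 2.63 in WT, and Lox, a collagen cross-linking enzyme, 4.27 in KO and 5.02 in WT.

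The pentose phosphate pathway branches from glucose 6-phosphate and makes NADPH. Its 9 genes gave 0 higher and 1 lower past 2-fold with LPS in each genotype. Of all genes, 6.61% were higher and 15.1% lower in KO, and 6.41% and 17.2% in WT. The lower gene was Shpk in KO, on 4 counts against 28, and H6pd in WT. For H6pd in WT the log2 fold was -1.36, and -0.93 after median-ratio scaling. Between genotypes without LPS, 5 of 9 had intervals below 1 in KO and 1 above, against 11.6% and 14.1% of genes, with a median of -0.31. With LPS, 4 of 8 measured were below 1, against 9.5% of genes, with a median of -0.25. Chosen after their values were seen, Taldo1 was at 171 and 228 FPKM in KO LPS and KO NT, against 269 and 380 in WT LPS and WT NT, and Pgd was at 127 and 160, against 188 and 243. None of these genes differed 2-fold between KO and WT, in either condition.

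**Figure D5:**
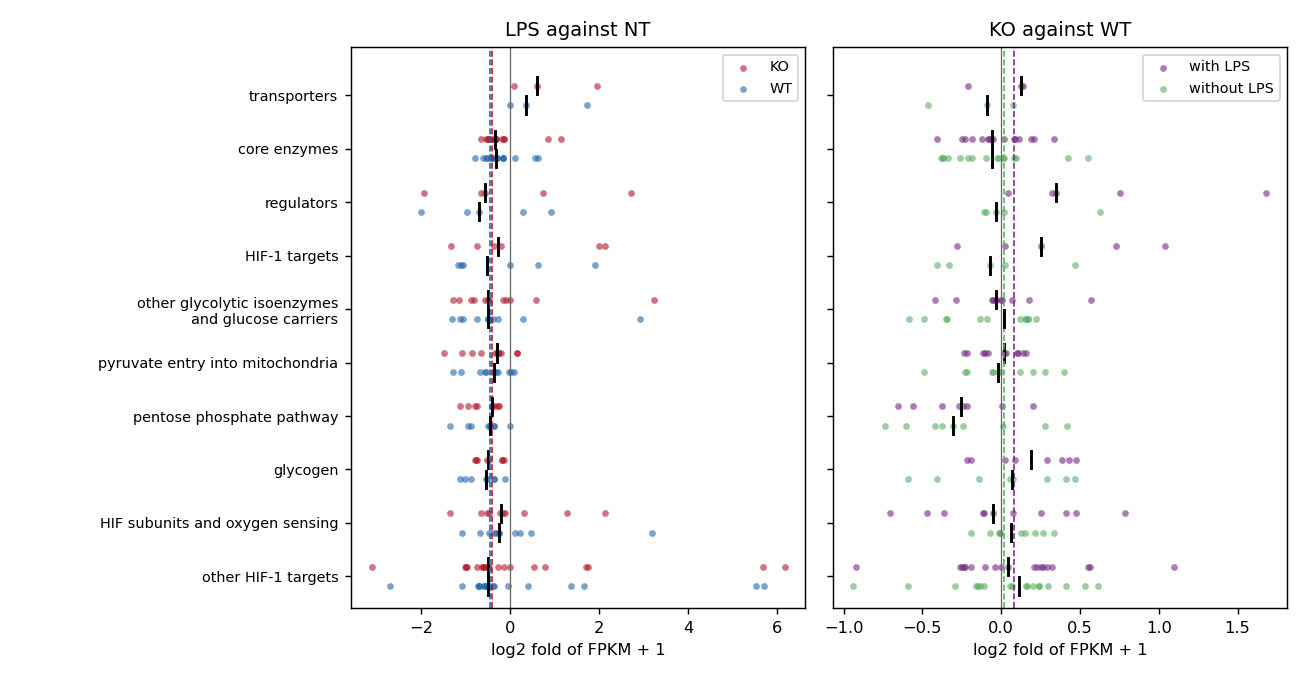
Log2 fold of FPKM + 1 of every measured gene in the 4 member roles and 6 related lists, for LPS against NT in KO and WT (left) and for KO against WT with and without LPS (right). Black bars are list medians and dashed lines the median of all genes tested, and the pentose phosphate pathway lies left of the dashed lines at right, with medians of -0.25 and -0.31.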

How the data were processed

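The members and gene lists were chosen with earlier results of these data known. Per the labels' protocols, total RNA (Trizol, then an RNeasy column) was sequenced on a HiSeq. The deposited expected counts and FPKM were made by the authors with Bowtie and RSEM on mm10, per the submitters' processing notes, with versions not given in the sources used here. Expected counts were whole in all libraries for 24 of 32 members. Symbols and coordinates came from a RefSeq GRCm38.p6 table, which matched 15897 of 15935 gene IDs.

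From the deposited FPKM, log2 folds used a pseudocount of 1 and a minimum of 1 FPKM. FPKM ratio intervals were exact Clopper-Pearson 95% intervals from rounded counts. They were tried on counts simulated with counting error only, which cannot show how they do with other error. Intervals of the ratio of LPS ratios were exact conditional 95% intervals from the 4 rounded counts and were not part of that simulation. Median-ratio scaling used the 9391 genes at 1 FPKM or more in all 4 libraries. With 1 library per group no test was run. Every member is accounted for; listed pathway and marker genes were named if 2-fold apart with at least 50 expected counts, up to 4 per list and comparison, except where stated otherwise; 1 such gene is not reported here. A protein comparison was not used here. Python 3.11.15, pandas 2.3.3 and scipy 1.17.1 were used. The alternatives were other pseudocounts, filters, scalings, units and fold thresholds.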

Additional observations from a re-analysis of the deposited data

Results flagged for a closer look

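The LPS response of Pfkfb3 differed between genotypes by a ratio of LPS ratios of 3.591, KO over WT, and that of Hilpda by 2.849. Both stood out because the exact counting interval of the ratio lay above 1 and the log2 folds differed by more than 2-fold. The interval covers counting error only, and with 1 library per group the spread between cultures is not known. Neutrophil markers were also higher in the KO libraries, and their part in these differences was not tested.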

How the results depend on the processing

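No member past 2-fold turned to the other direction with the other pseudocounts, the other scalings or CPM. Single genes outside the members were not followed in this way. The core enzymes' median with LPS changed sign with median-ratio scaling. A threshold of 1.5-fold gave these members: with LPS 8 higher and 5 lower in KO, and 5 higher and 8 lower in WT; between KO and WT 4 higher with LPS and 1 higher without; in the difference of responses 4 higher and 1 lower. A 3-fold threshold gave 1 lower in KO and 1 lower in WT with LPS, 1 higher between KO and WT with LPS, and 1 higher in the difference. A pseudocount of 5 gave 3 higher and 1 lower in KO, 1 higher and 1 lower in WT, and 1 higher between KO and WT with LPS. Median-ratio scaling gave 6 higher and 1 lower in WT, and 1 higher between KO and WT with LPS. A minimum of 5 FPKM, or of 50 expected counts (chosen after seeing the data), gave 1 lower in KO and 1 higher in WT. The median of regulators and HIF-1 targets minus that of core enzymes was 0.39 between KO and WT with LPS, and 0.80 with a minimum of 5 FPKM. With LPS in WT it was -0.37, and -0.48 from CPM, -0.024 with no filter, -0.49 with a pseudocount of 0.1 and -0.039 with a pseudocount of 5. In KO with LPS it was -0.018, and 0.042 from CPM, 0.054 with no filter and 0.049 with a pseudocount of 5. The causes were not tested beyond the setting itself. Over all genes, counts past the threshold ranged from 469 to 1136 higher and 362 to 4130 lower with LPS in KO, and from 439 to 1050 higher and 452 to 4457 lower in WT. Between KO and WT they ranged from 32 to 590 higher and 37 to 348 lower with LPS, from 20 to 428 higher and 22 to 336 lower without, and in the difference from 48 to 691 higher and 31 to 488 lower. Low counts limit Adm, Ankrd37 and Egln3. No paired analysis was possible because each group has 1 library and the labels give no replicate numbers.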
